A study of Homo sapiens with 4 samples.

Results

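Heat shock proteins and their DNAJ (HSP40) co-chaperones were examined in human neurons in which a repeat element on chromosome 11 was targeted by CRISPR interference. Members were the gene symbols of the HSPA, HSPB, HSPD, HSPE, HSPH and HSP90A series and of the DNAJA, DNAJB and DNAJC series, leaving out HSPA5, DNAJB9 and DNAJC6, which gave 70 of the 28307 symbols in the count files. They comprised 12 HSP70 genes, 3 HSP110 genes, 3 HSP90 genes, 2 mitochondrial chaperonin genes and 8 small HSP genes. The DNAJ series added 4 DNAJA, 12 DNAJB and 26 DNAJC genes. HSPA7, HSP90AB4P and DNAJB3 among them are annotated as transcribed pseudogenes. RNA was sequenced from 2 CRISPRi and 2 control libraries of i3N-WTC11 neurons, a WTC11 iPSC line that makes excitatory neurons. Neurons of both groups carried dCas9-KRAB, a transcriptional repressor without nuclease activity, under a CAG promoter in an intron of CLYBL. After 2 weeks of differentiation they received lentivirus at a multiplicity of infection of 3, then puromycin at 0.5 ug/mL for 4 days, and were collected on day 7. CRISPRi neurons received guides to an element of the MIR family, and control neurons received the empty guide vector. The design used 2 guides per element, and the labels used here do not say which guide each library received. The series places the element at chr11:47605296-47605575 in its design and at chr11:47608036-47608220 in its title (hg38), and names no target gene, so no transcript level checked the labels here. Of the 5 members on chromosome 11, DNAJC24, a J-domain protein of diphthamide synthesis, was nearest to it, 16.2 Mb away. All cells derive from 1 iPSC line, so the replicates, stated to be biologically independent, sample no genetic variation.

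Chaperones bind unfolded proteins and help them fold, reach their compartment or be degraded. HSP70 binds and releases its clients in an ATP cycle that DNAJ proteins start through their J domain and that HSP110 proteins turn over by nucleotide exchange, while HSP90 acts later on signalling clients. Proteotoxic stress drives part of this system through heat shock factor 1, which binds repeats of the triplet GAA and its complement TTC in promoters, and neurons also use constitutive members such as HSPA8 and DNAJC5 at the synapse.

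Control replicate 1 held 944993 counts, against 39325038 to 44839748 in the other 3 libraries, so that 1 count there equals 1.06 CPM, the library-scaled count used throughout. The 10 neuronal markers were detected in all 4 libraries and summed to 15914 and 16059 CPM in the CRISPRi libraries, and to 13725 and 15765 CPM in controls 1 and 2. The 16 markers of dividing cells summed to 90.9 and 99.2 CPM in the CRISPRi libraries, and to 543 and 98.6 CPM in controls 1 and 2, with every one of the 16 highest in control 1. The 7 astrocyte and oligodendrocyte markers summed to 26.4 to 30.6 CPM in the 4 libraries, with SOX10 at 0 counts in all 4, the 3 GABAergic markers to 4.23 to 7.51 CPM and the 8 mesenchymal markers to 79.4 to 103 CPM. The 4 pluripotency markers summed to 13.8 to 21.3 CPM, of which LIN28A made up 13.8 to 21 CPM and NANOG 0 to 0.0241 CPM. The part of these markers in the chaperone values was not tested. In bulk RNA, fewer cells of a type and less RNA per cell cannot be told apart.

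Promoters of 7 members, the 4 most abundant among them, carried the letters of the heat shock element, and these are shown because the levels and the stress-linked list described afterwards refer to them. RefSeq gave promoters (GRCh38.p14, 250 bases before to 50 after a start) for 59 of the 70 members. The 3-unit element was searched as GAANNTTCNNGAA or TTCNNGAANNTTC, which are reverse complements of each other and so cover both strands. It occurred in 7 of 77 member promoters (9.09%) and in 172 of all 35116 promoters (0.49%). The 2-unit element, GAANNTTC or TTCNNGAA, which also lies inside each 3-unit match, occurred in 22 member promoters (28.6%) and in 13.5% of all promoters. All 7 genes with a 3-unit match belong to a list of 17 members linked to the stress response, which also holds the constitutive HSPA8 and HSP90AB1. Of these 17, 14 had a 2-unit match, while among the other 42 members with a promoter 0 had a 3-unit match and 7 a 2-unit match. The matches follow 5′ to 3′ on the strand of the gene, with the element in capitals and 3 flanking bases on each side.
DNAJA1, chr9:33025273-33025291, plus strand: gcgGAACTTTCCAGAAcgc
DNAJB6, chr7:157336870-157336888, plus strand: cgaGAACCTTCGCGAAggt
HSP90AA1, chr14:102087117-102087135, minus strand: ttcTTCCGGAAGGTTCggg
HSP90AB1, chr6:44247775-44247793, plus strand: aggTTCTGGAAGATTCatg
HSP90AB1, chr6:44247828-44247846, plus strand: ttgTTCTGGAAGCTTCtgg
HSPA6, chr1:161524463-161524481, plus strand: aggTTCGCGAAAGTTCgcg
HSPA8, chr11:123062176-123062194, minus strand: cccTTCTGGAAGGTTCtaa
HSPA8, chr11:123062351-123062369, minus strand: cttGAAAGTTCCAGAAcgc
HSPD1, chr2:197500065-197500088, minus strand: attTTCTGGAAAGTTCTGGAAccg
The HSPD1 run holds 2 overlapping matches. The DNAJA1 match begins 3 bases after the start used, and the others begin between 55 and 245 bases before the start used. A gene can have several RefSeq starts. The matches of HSP90AA1, HSP90AB1, HSPA8 and HSPD1 lie inside the RefSeq span of the gene, which begins further upstream. A match is a run of letters and not a measured binding site.

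The 250 bases before the start used are printed for 4 HSP70 genes that mark the range of levels. They are HSPA8, the most abundant member, HSPA6, which was nearly silent, and the near-identical pair HSPA1A and HSPA1B. The printed HSPA8 bases lie inside the RefSeq span of the gene, chr11:123057489-123062462. Capitals mark the 3-unit matches of HSPA8 and HSPA6 and the 2-unit match of HSPA1A and HSPA1B, which begins 106 bases before the HSPA1A start and 105 before the HSPA1B start.
HSPA8, chr11:123062137-123062386, minus strand: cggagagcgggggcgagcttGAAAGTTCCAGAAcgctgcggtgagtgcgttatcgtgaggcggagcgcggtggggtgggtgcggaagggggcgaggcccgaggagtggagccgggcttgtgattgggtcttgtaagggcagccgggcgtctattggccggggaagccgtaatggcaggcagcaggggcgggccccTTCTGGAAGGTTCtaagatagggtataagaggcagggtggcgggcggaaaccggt
HSPA6, chr1:161524290-161524539, plus strand: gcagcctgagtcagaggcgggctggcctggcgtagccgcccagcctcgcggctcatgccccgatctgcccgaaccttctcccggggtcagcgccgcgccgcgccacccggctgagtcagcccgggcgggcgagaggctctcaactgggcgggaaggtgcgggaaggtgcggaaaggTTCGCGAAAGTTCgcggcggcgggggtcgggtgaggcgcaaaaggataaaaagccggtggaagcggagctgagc
HSPA1A, chr6:31815293-31815542, plus strand: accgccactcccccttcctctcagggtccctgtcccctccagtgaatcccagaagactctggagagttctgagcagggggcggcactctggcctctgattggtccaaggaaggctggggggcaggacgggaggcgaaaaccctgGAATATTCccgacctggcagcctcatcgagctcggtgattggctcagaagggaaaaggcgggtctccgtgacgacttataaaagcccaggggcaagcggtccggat
HSPA1B, chr6:31827488-31827737, plus strand: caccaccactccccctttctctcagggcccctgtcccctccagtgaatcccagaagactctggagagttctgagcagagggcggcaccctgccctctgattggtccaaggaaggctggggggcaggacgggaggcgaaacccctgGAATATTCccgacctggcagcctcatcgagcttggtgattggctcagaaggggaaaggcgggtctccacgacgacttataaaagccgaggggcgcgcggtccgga

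The cytosolic HSP70 and HSP90 genes made up most of the counts of the 70 members in these neurons. Members took 0.974% and 0.933% of the counts of CRISPRi neurons, and 0.995% and 0.917% of those of controls 1 and 2. HSPA8, HSP90AA1 and HSP90AB1 alone made up 54.5% and 53.4% of the member counts of CRISPRi neurons, and 50.6% and 53.6% in controls 1 and 2. Levels are compared between genes as CPM per kilobase of transcript, averaged over the 3 deep libraries. HSPA8, the constitutive HSP70 that also uncoats clathrin vesicles, stood first at 861 (range 855 to 867), then HSP90AB1, the constitutive HSP90, at 616 and HSP90AA1, the inducible HSP90, at 449. DNAJA1, a cytosolic J-domain partner of HSPA8, followed at 194, HSPD1, the mitochondrial HSP60, at 102, HSPA4, an HSP110 exchange factor, at 79.3, and DNAJB6, a suppressor of aggregation, at 73.4. The ranges of these 7 over the deep libraries did not overlap that of the next gene in the order, whereas HSPA1A (64.8), HSPE1 (62.1), DNAJB1 (58.4) and HSPA9 (57.6) each overlapped the next, down to HSPA1B (55.6). Counted over the 70 members, 5 stood at 100 or more CPM per kilobase, 28 from 10 to under 100, 20 from 1 to under 10, 5 from 0.1 to under 1, and 12 under 0.1.

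**Figure D1:**
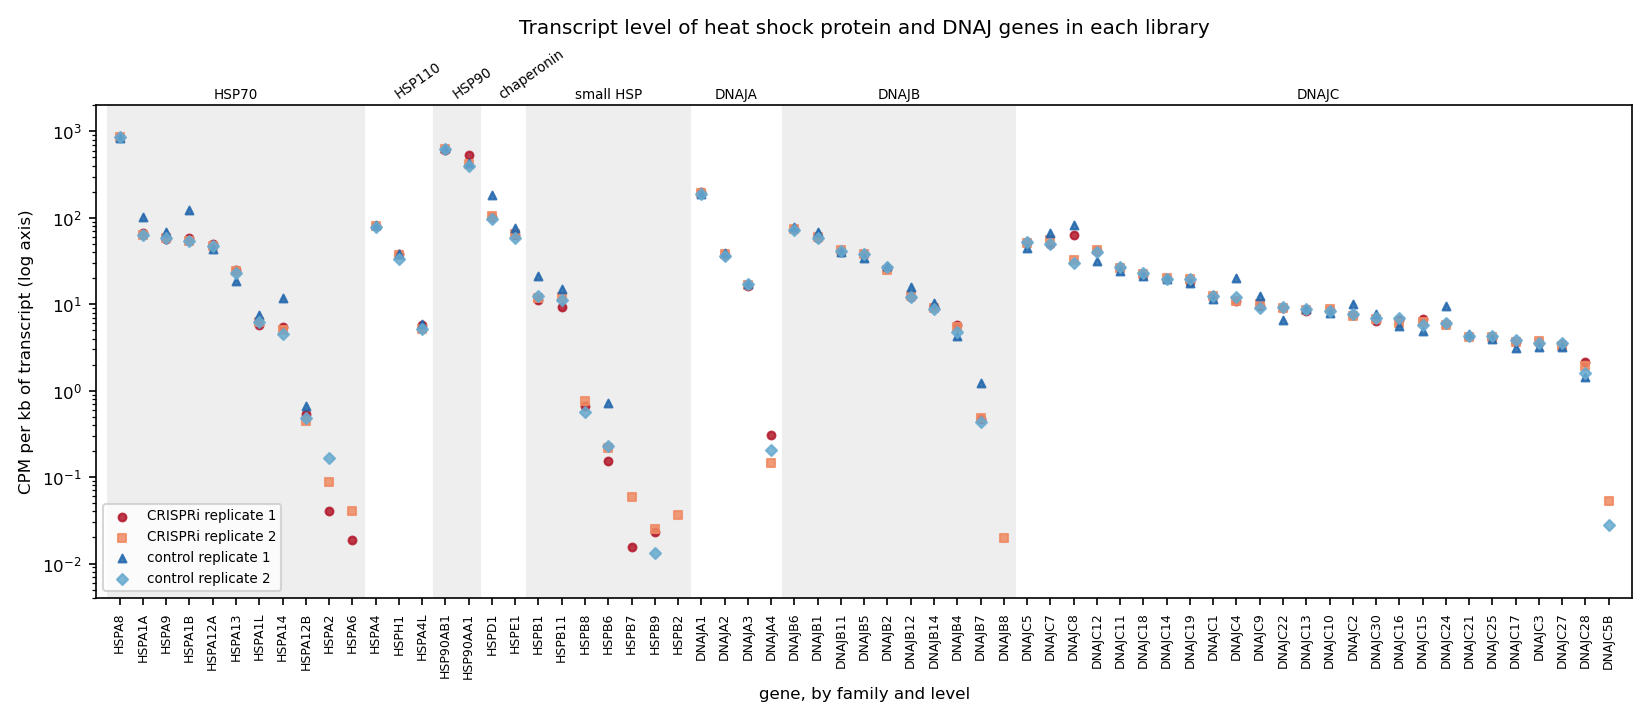
Level of each detected member in CPM per kilobase of transcript (log axis), 1 point per library, grouped by family; values of 0 are not drawn. HSPA8, HSP90AB1 and HSP90AA1 stand above the other members, and DNAJ members spread over the range below them.

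Low members were found mainly among the small HSPs and at the end of the HSP70 and DNAJB series. Among the DNAJC genes DNAJC5, the cysteine string protein of synaptic vesicles, led at 52.5 CPM per kilobase. HSPB1 (HSP27) led the small HSPs at only 11.7, next to HSPB11, an intraflagellar transport protein in spite of its symbol, at 10.8. HSPB8, which works with BAG3 in the autophagy of aggregates, was at 0.66. HSPA6, a human HSP70 known for strict stress induction, was read 2 and 4 times in CRISPRi neurons and had 0 counts in both controls. Its reference promoter holds the 3-unit letters printed above. In the shallow control 1 a count of 0 allows up to 3 counts, or 3.17 CPM, so the 0 there is not informative for such genes. HSPA2, known mainly from testis, was read 5 and 10 times in CRISPRi neurons, against 0 and 18 times in controls 1 and 2. DNAJB3, DNAJB13, HSPA7, HSP90AB4P and HSPB3 had 0 counts in every library. Of these, DNAJB3, HSPA7 and HSP90AB4P are annotated as transcribed pseudogenes in RefSeq.

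The first question was whether any chaperone differed between CRISPRi and control neurons, and no member passed the test. Whether the element itself was silenced was not tested. edgeR's quasi-likelihood test was run on the counts of the 15708 genes that passed the filter on low counts, with Benjamini-Hochberg adjustment over all of them. Of the 58 members that passed this filter, 0 were called higher and 0 lower at an adjusted p under 0.05. The background over the genes tested was 0 called higher (0%) and 4 called lower (0.0255%), namely C4orf3, MMGT1, RNA18SN5 and UBE2G2. In the settings other than those that left out a control, 0 members were called in either direction and 0% to 0.181% of genes. The unadjusted edgeR p was under 0.05 for 0 of the 58 members and for 151 genes (0.961%). DESeq2 likewise gave 0 members, against 148 genes (0.942%), and limma-voom gave 1, HSPH1 (1.72%), against 266 genes (1.69%). The adjusted p in edgeR's quasi-likelihood test was 1 for each of the 58 members. The other 12 members, DNAJB3, DNAJB8, DNAJB13, DNAJC5B, HSP90AB4P, HSPA2, HSPA6, HSPA7, HSPB2, HSPB3, HSPB7 and HSPB9, were too low to test.

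The estimates were small and evenly spread in sign. The log2 fold change of CRISPRi over control was positive for 29 of the 58 tested members (50%), against 52.7% of all tested genes. Its median was -0.002 for members and 0.01 for all genes, and its median absolute value was 0.07 for members and 0.10 for all genes. Both CRISPRi libraries lay above both controls for 10 members (17.2%, against 17.8% of tested genes) and below both for 12 (20.7%, against 16.5%), shares near the background. The 95% interval of the log2 fold change excluded a 2-fold change either way for 48 of the 58 (82.8%, against 68.7% of tested genes). It excluded a 1.5-fold change for 42 (72.4%, against 53.1%). Members and tested genes were not matched for abundance, whose part in these shares was not tested. The half-width of the interval was 0.31 on the log2 scale at the median, narrowest for DNAJB6 at 0.18 and widest for DNAJA4 at 1.74. These intervals are not adjusted for the number of genes tested, whereas a call needed an adjusted p under 0.05. With 2 libraries a group, the change needed for a call was therefore larger than these widths.

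**Figure D2:**
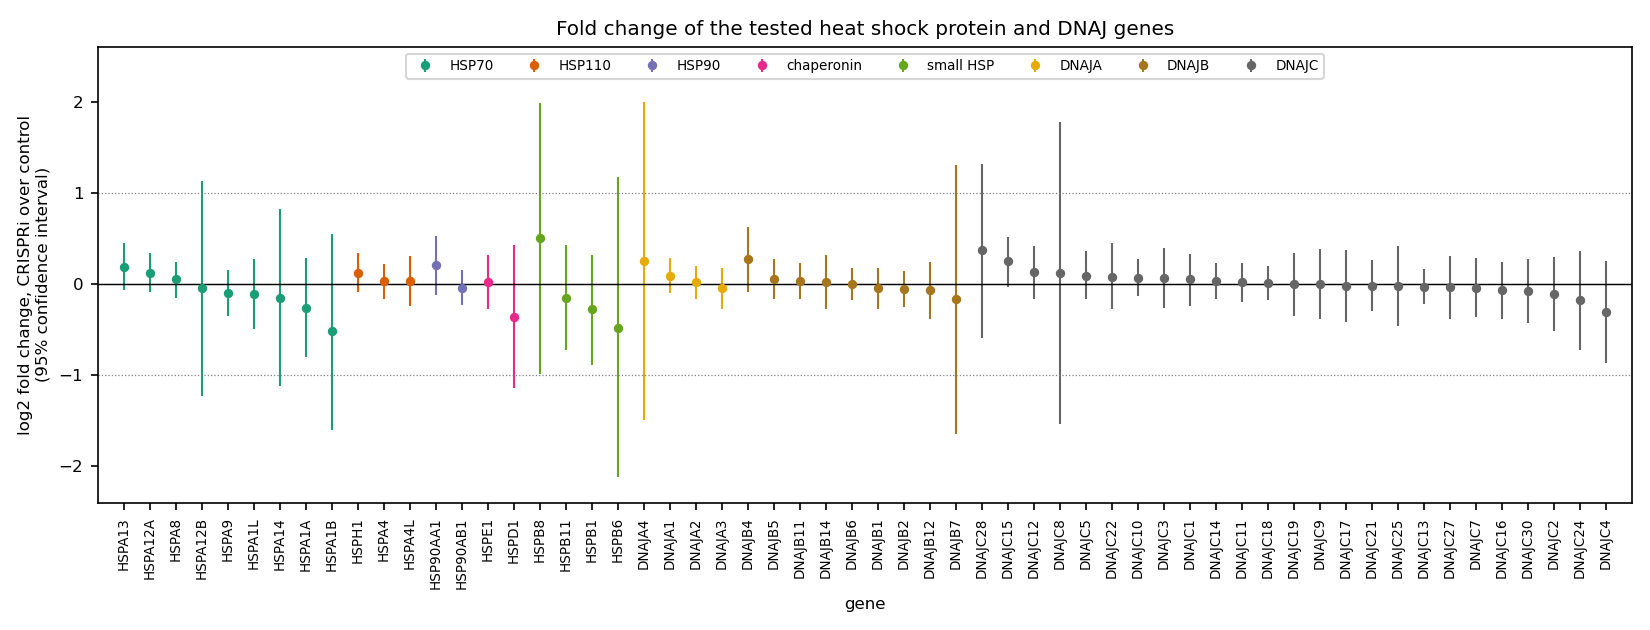
Log2 fold change of CRISPRi over control with its 95% interval for the 58 tested members, by family. Every interval holds 0, and the widest belong to DNAJA4, DNAJC8, HSPB6 and HSPB8. Dotted lines mark a log2 fold change of 1 and -1.

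The constitutive HSP70 and HSP90 pair showed small differences that did not pass the test. HSPA8 had 1911 and 1938 CPM in the CRISPRi libraries, and 1853 and 1920 CPM in the controls, or 1924 ± 19 against 1886 ± 47.4 (SD, n = 2 each). Only CRISPRi replicate 1 fell inside the range of the controls, and the log2 fold change was 0.05 (95% interval -0.15 to 0.24). HSP90AB1 had 1562 and 1614 CPM in the CRISPRi libraries, and 1684 and 1625 CPM in the controls. Both CRISPRi values were below both controls, by less than the interval of the fold change (-0.04, -0.23 to 0.15).

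HSP90AA1 was the abundant member whose CRISPRi replicates differed. It had 1835 and 1433 CPM in the CRISPRi libraries, and 1496 and 1372 CPM in the controls, or 1634 ± 284 against 1434 ± 87.7 (SD, n = 2 each). CRISPRi replicate 1 was the highest and CRISPRi replicate 2 lay between the controls, so the groups overlapped. The log2 fold change was 0.21 (-0.12 to 0.53, unadjusted p = 0.17 by edgeR), and it was 0.02 without CRISPRi replicate 1 and 0.37 without CRISPRi replicate 2. The ratio of HSP90AB1 to HSP90AA1 counts was 0.851 and 1.13 in CRISPRi neurons, against 1.13 and 1.18 in the controls. A difference over 1.2-fold between the CRISPRi replicates was seen in 6 tested members (10.3%, against 16.6% of tested genes), namely HSP90AA1, DNAJC8, DNAJA4, HSPA12B, HSPB11 and HSPB6.

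The HSP110 exchange factors were within the control range or close to it. HSPA4 had 392 and 383 CPM in the CRISPRi libraries, and 398 and 373 CPM in the controls, with CRISPRi inside the control range (log2 fold change 0.03). HSPA4L, its relative with highest levels known from testis, had 39.4 and 35.9 CPM in the CRISPRi libraries, and 41.3 and 35.8 CPM in the controls, again inside the range (0.03). HSPH1, the stress-inducible HSP110, had 164 and 160 CPM in the CRISPRi libraries, and 165 and 143 CPM in the controls. Control 1 was the highest and control 2 the lowest, and the log2 fold change was 0.12 (-0.09 to 0.34). Without control 1 the log2 fold change of HSPH1 was 0.19, and without control 2 it was 0.01.

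Besides HSPA8, only HSPA12A and HSPA13 among the 9 tested HSP70 genes had positive estimates. HSPA12A, a brain-rich relative of HSP70, had 289 and 275 CPM in the CRISPRi libraries, and 250 and 272 CPM in the controls (log2 fold change 0.12, -0.09 to 0.34). HSPA13, a microsomal HSP70 without the peptide-binding domain, had 99.4 and 95.6 CPM in the CRISPRi libraries, and 74.1 and 90.9 CPM in the controls (0.19, -0.07 to 0.45, unadjusted p = 0.12 by edgeR). Both CRISPRi libraries were above both controls for each gene, with control 1 the lowest.

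Among DNAJ proteins the 4 DNAJA genes had a median log2 fold change of 0.05, the 9 tested DNAJB genes of 0.0002 and the 25 tested DNAJC genes of -0.004. DNAJA1 had 477 and 463 CPM in the CRISPRi libraries, and 442 and 449 CPM in the controls. Both CRISPRi values were above both controls, with a log2 fold change of 0.09 (-0.10 to 0.28). DNAJA4 was rare, at 0.981 and 0.457 CPM in the CRISPRi libraries (44 and 19 counts), and at 0 and 0.661 CPM in controls 1 and 2 (0 and 26 counts). CRISPRi replicate 2 was below control 2, so the groups overlapped, and the log2 fold change was 0.25 (-1.49 to 2.00).

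DNAJB1, the classical inducible HSP40, had 102 and 106 CPM in the CRISPRi libraries, and 121 and 103 CPM in the controls (log2 fold change -0.05). DNAJB2, a neuron-rich member that binds ubiquitinated clients, had 66.7 and 64.5 CPM in the CRISPRi libraries, and 70.9 and 68.1 CPM in the controls, both CRISPRi values below both controls (-0.06, -0.25 to 0.14). DNAJB6 had 154 and 152 CPM in the CRISPRi libraries, and 162 and 150 CPM in the controls, and its estimate was 0.0002. Its interval, -0.18 to 0.18, was the narrowest of the members. DNAJB4, a relative of DNAJB1, had 17.1 and 16.4 CPM in the CRISPRi libraries, and 12.7 and 14.3 CPM in the controls. Its CRISPRi libraries lay above its controls, with a log2 fold change of 0.27 (-0.09 to 0.62, unadjusted p = 0.117 by edgeR).

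The DNAJC genes, whose proteins share little beyond the J domain, held the smallest unadjusted p of the tested members. That was DNAJC15, an inner-membrane partner of the mitochondrial import motor, with 53.7 and 49.2 CPM in the CRISPRi libraries, and 38.1 and 45.3 CPM in the controls. Both CRISPRi libraries were above both controls, 51.4 ± 3.18 against 41.7 ± 5.1 (SD, n = 2 each), with a log2 fold change of 0.25 (-0.03 to 0.52, unadjusted p = 0.0724 by edgeR). DNAJC5 had 277 and 267 CPM in the CRISPRi libraries, and 232 and 277 CPM in the controls, and was the 1 tested member whose counting interval in control 1 (202 to 265) lay below the other libraries. The log2 fold change of DNAJC5 was 0.09 (-0.17 to 0.36). DNAJC4 had 12.5 and 12.7 CPM in the CRISPRi libraries, and 23.3 and 13.9 CPM in the controls, on 22 counts in control 1. Both CRISPRi libraries were below both controls, with a log2 fold change of -0.31 (-0.87 to 0.25), which was -0.13 without control 1 and -0.85 without control 2. The estimates of the other tested DNAJC genes lay between these and 0.37 for DNAJC28, a little-studied gene with 3.17 and 2.91 CPM in the CRISPRi libraries, and 2.12 and 2.42 CPM in the controls.

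DNAJC8, a J protein bound to the splicing machinery, varied widely inside both groups. It had 111 and 56.5 CPM in the CRISPRi libraries, and 146 and 52.6 CPM in the controls, from 4968 and 2348 counts in CRISPRi, and 138 and 2070 in the controls. Replicate 1 was far above replicate 2 in both groups, and the groups overlapped. The fitted log2 fold change was 0.12 (-1.54 to 1.78), opposite in sign to the mean CPM of 83.6 in CRISPRi and 99.3 in control, and it was 0.67 without control 1 and -0.77 without control 2. In the files this gene is listed on an alternate contig, and its deposited FPKM is 0 in each library in spite of the counts. How much the alternate copy bears on the spread was not tested.

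The small HSPs were low and imprecise. HSPB1 had 10.1 and 10.7 CPM in the CRISPRi libraries, and 19 and 11.2 CPM in the controls, with 18 counts in control 1. Both CRISPRi libraries were below both controls, and the log2 fold change was -0.28 (-0.89 to 0.32), with -0.10 without control 1 and -0.84 without control 2. HSPB8 had 1.43 and 1.61 CPM in the CRISPRi libraries (64 and 67 counts), against 0 and 1.22 CPM in controls 1 and 2 (0 and 48 counts). CRISPRi was above both controls, with a log2 fold change of 0.50 (-0.99 to 1.99), a value that depends on the 0 in the shallow control.

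**Figure D3:**
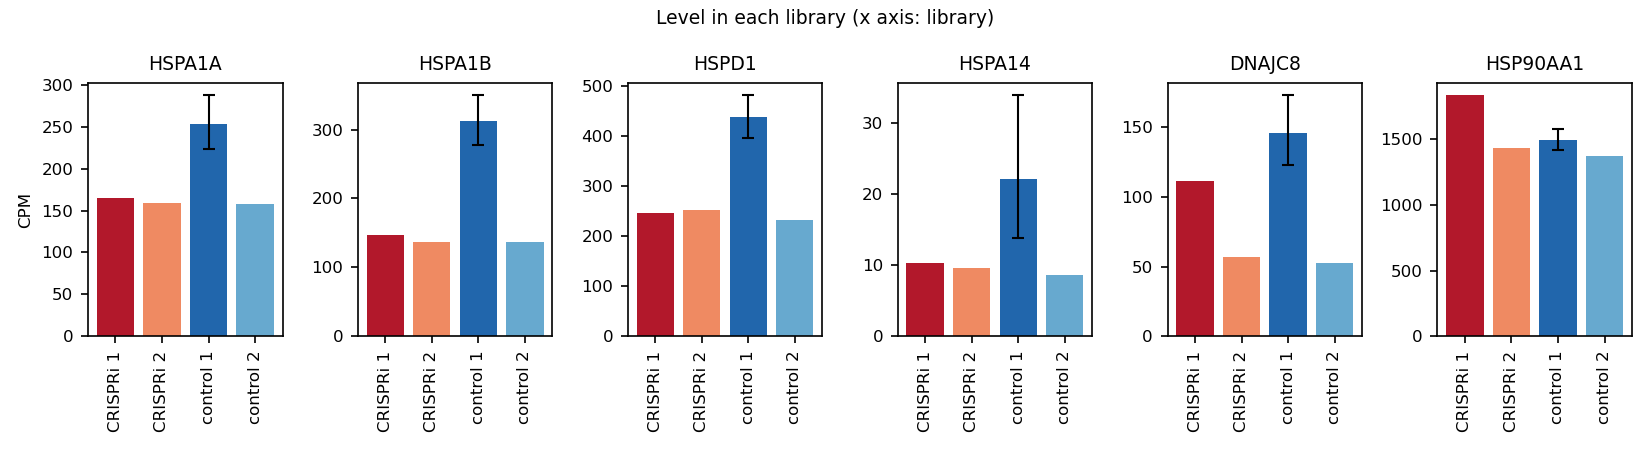
CPM of 6 members, 1 bar per library from 0, CRISPRi (red, orange) left of control (blue), with the 95% counting interval drawn for control 1. HSPA1A, HSPA1B, HSPD1, HSPA14 and DNAJC8 show control 1 above the other 3 libraries, and in HSP90AA1 CRISPRi replicate 1 is the highest.

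Several of the lowest estimates belonged to members with a high value in control 1. HSPA1A and HSPA1B encode the major stress-inducible HSP70, lie 9795 bases apart on chromosome 6 (31815543 to 31817942 and 31827738 to 31830254, RefSeq GRCh38.p14), and differ at 4 of 1926 coding positions (99.8% identity). HSPA1A had 165 and 159 CPM in the CRISPRi libraries, and 254 and 158 CPM in controls 1 and 2. HSPA1B had 147 and 137 CPM in the CRISPRi libraries, and 312 and 137 CPM in controls 1 and 2. Control 1 stood apart in both genes, with counting intervals of 223 to 288 and 278 to 350 CPM (exact Poisson, 95%), and the other 3 libraries lay close together. The log2 fold change of HSPA1A was -0.26 (-0.80 to 0.28), and it was 0.04 without control 1. That of HSPA1B was -0.52 (-1.60 to 0.55), and it was 0.05 without control 1.

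Because reads of a near-identical pair can be assigned to either copy, the split between them is uncertain and their sum is the firmer value. The sum was 312 and 295 CPM in the CRISPRi libraries, and 566 and 296 CPM in controls 1 and 2, with a counting interval of 519 to 616 on 535 counts in control 1. The ratio of HSPA1A to HSPA1B counts was 1.13 and 1.16 in CRISPRi neurons, and 0.814 and 1.15 in controls 1 and 2; the value of control 1 was the lowest of the 4, a difference that was not tested. Both genes are listed on alternate contigs in the files, with a deposited FPKM of 0 in spite of the counts. HSPA1L, the third gene of this cluster with 80.9% coding identity to HSPA1A, had 14.5 and 15.8 CPM in the CRISPRi libraries, and 19 and 15.8 CPM in the controls.

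HSPD1 and HSPE1, HSP60 and its HSP10 cap, are neighbours 104 bases apart on chromosome 2 and form the folding chamber of the mitochondrial matrix. HSPD1 had 245 and 251 CPM in the CRISPRi libraries, and 437 and 231 CPM in controls 1 and 2, with a counting interval of 396 to 481 in control 1. HSPE1 had 59.7 and 61.3 CPM in the CRISPRi libraries, and 73 and 55.9 CPM in the controls, where the interval of control 1, 56.8 to 92.4, took in the CRISPRi values. The log2 fold change was -0.36 for HSPD1 (-1.14 to 0.43; 0.11 without control 1) and 0.02 for HSPE1 (-0.28 to 0.32). HSPD1 counts over HSPE1 counts gave 4.1 in both CRISPRi libraries, and 5.99 and 4.13 in controls 1 and 2. HSPD1 and HSPE1 have 17 and 26 named pseudogenes in GENCODE 29, whose handling in the counts is not given in the sources used here. Over the list of 10 mitochondrial members the summed CPM was 805 and 821 in the CRISPRi libraries, and 1059 and 792 in controls 1 and 2, with a median log2 fold change of -0.02.

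The same pattern held for a minority of members. The counting interval of control 1 lay above the other 3 libraries for 8 of the 58 tested members (13.8%, against 9.54% of tested genes) and below them for 1 (1.72%, against 5.7%). The 8 were HSPA1A, HSPA1B, HSPD1, HSPA9, HSPA14, HSPB1, DNAJC4 and DNAJC8. HSPA9, the mitochondrial HSP70 (mortalin), had 268 and 276 CPM in the CRISPRi libraries, and 326 and 273 CPM in the controls. HSPA14, a ribosome-associated HSP70, had 10.3 and 9.65 CPM in the CRISPRi libraries, and 22.2 and 8.57 CPM in the controls, on 21 counts in control 1. Both were named after their values were seen. HSPA14 overlaps LOC100421372 on the same strand, so the counts of the overlap could fall to either gene. The summed dividing-cell markers, 90.9 and 99.2 CPM in the CRISPRi libraries, and 543 and 98.6 CPM in controls 1 and 2, stood apart in the same library. Their part in these values was not tested.

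**Figure D4:**
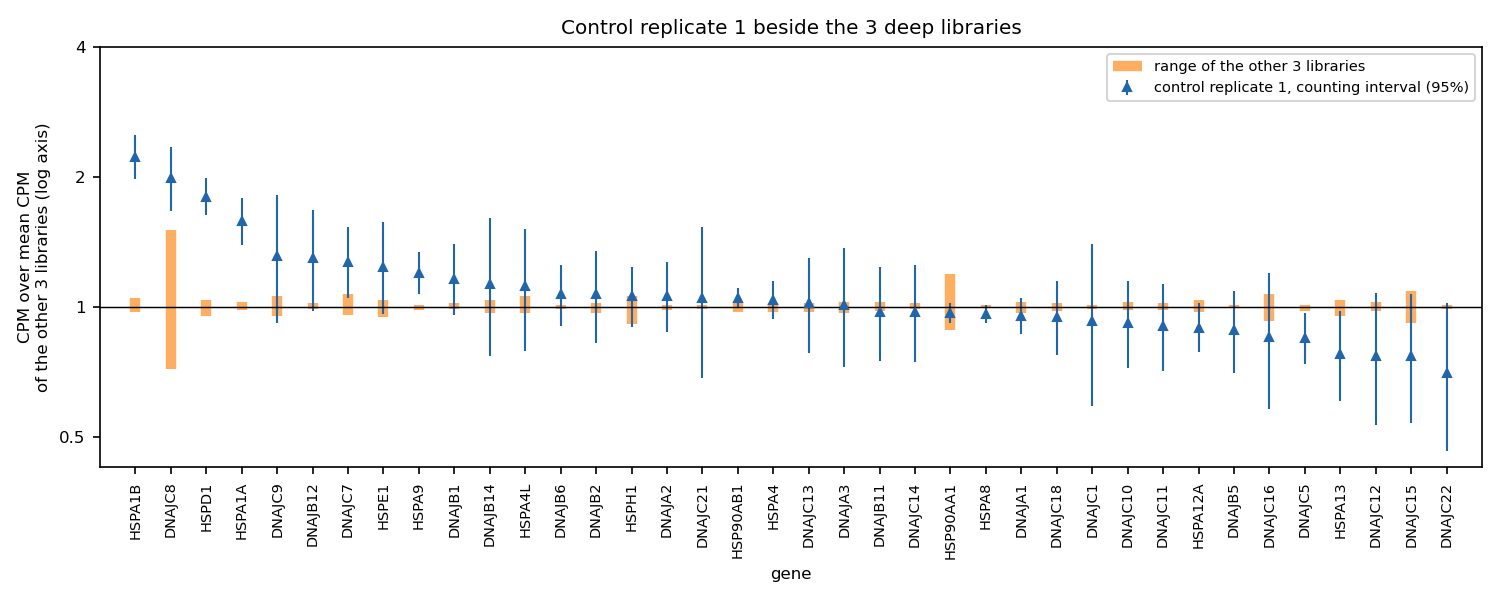
CPM in control 1 over the mean CPM of the other 3 libraries (log axis) for the 38 members whose level in those libraries gives an expected count of at least 20 in control 1 (triangles, with 95% counting intervals), beside the range of those 3 libraries (orange bars). The median ratio is 1.03, and HSPA1B, DNAJC8, HSPD1 and HSPA1A lie highest, from 2.23 to 1.58.

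The other 3 libraries led to an expected count of at least 20 in control 1 for 38 members. The counting interval of the ratio of control 1 to the mean of those 3 held 1 for 30 of them, and the median ratio was 1.03. The ratio ran from 0.704 for DNAJC22 to 2.23 for HSPA1B, with DNAJC8 at 1.99, HSPD1 at 1.8 and HSPA1A at 1.58. The 2 controls differed by more than 1.5-fold in 12 tested members (20.7%, against 37.5% of tested genes). Leaving out control 2, so that control 1 alone stood for the controls, edgeR called 4 members lower in CRISPRi, against 798 of 16064 genes called lower (4.97%) and 580 called higher (3.61%). These were HSPA1A (log2 fold change -0.62, adjusted p = 0.00293), HSPA1B (-1.11, adjusted p = 0.000663), HSPD1 (-0.79, adjusted p = 0.000792) and HSPA14 (-1.13, adjusted p = 0.0277). Leaving out control 1, edgeR called 0 members, against 71 genes called higher (0.437%) and 36 called lower (0.222%). In both fits the lone control was assumed to vary like the CRISPRi libraries.

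Grouped by role, no list held a called gene. The list of 17 stress-linked members, with the constitutive HSPA8 and HSP90AB1 in it, had 16 tested genes. Of these, 9 had positive and 7 negative estimates, with a median log2 fold change of 0.01. The 9 endoplasmic reticulum members, such as DNAJB11, DNAJC3 and DNAJC10, had 6 positive and 3 negative estimates (median 0.03). The 9 neuronal or vesicle members, which include HSPA8 and DNAJC5, also had 6 and 3 (median 0.05), and the 5 nuclear members 1 and 4 (median -0.02).

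Genes that act with these chaperones were followed as 59 partners in 6 lists, of which 58 were tested. None was called, and 0 had an unadjusted p under 0.05 in edgeR's quasi-likelihood test. HSF1, HSF2, HSF4 and the HSF1 regulator HSBP1 had a median log2 fold change of 0.01. HSF1, the master factor of the heat shock response, had 84.5 and 83.7 CPM in the CRISPRi libraries, and 88.9 and 86.2 CPM in the controls. HSBP1, which binds HSF1 and restrains it, had 508 and 504 CPM in the CRISPRi libraries, and 426 and 478 CPM in the controls (log2 fold change 0.17). For HSF1 both CRISPRi libraries were below both controls, and for HSBP1 above both.

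The 13 HSP70 cochaperones had a median of -0.04 and the 14 HSP90 cochaperones of -0.01. BAG1, an HSP70 exchange factor, had 115 CPM in each CRISPRi library, and 98.4 and 111 CPM in the controls, and STUB1, the ubiquitin ligase CHIP, had 84.1 and 81.9 CPM in the CRISPRi libraries, and 105 and 88.9 CPM in the controls. CDC37, which brings kinases to HSP90, had 128 and 129 CPM in the CRISPRi libraries, and 184 and 127 CPM in the controls, and FKBP4, a prolyl isomerase of HSP90, had 158 and 152 CPM in the CRISPRi libraries, and 208 and 158 CPM in the controls. In STUB1, CDC37 and FKBP4 control 1 was the highest library. The 14 TRiC and prefoldin genes, which fold actin and tubulin, summed to 2627 and 2653 CPM in the CRISPRi libraries, and to 3019 and 2561 CPM in controls 1 and 2. Control 1 was the highest library for 11 of these 14, against 30 of the 58 tested members (51.7%) and 39.5% of tested genes. It is also the library with the high dividing-cell markers given above, whose part was not tested. The prefoldin subunit PFDN4 had 27.5 and 27.8 CPM in the CRISPRi libraries, and 26.5 and 25.3 CPM in the controls, and VBP1, another subunit, had 87.7 and 86.4 CPM in the CRISPRi libraries, and 72 and 84.1 CPM in the controls. CRISPRi was above both controls in each, with log2 fold changes of 0.13 and 0.12 against a list median of -0.03.

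The 5 other J-domain genes had a median log2 fold change of 0.06. SEC63, the J protein of the endoplasmic reticulum translocon, had 110 and 115 CPM in the CRISPRi libraries, and 129 and 111 CPM in the controls, and the groups overlapped. The 9 other chaperones had 8 tested members, 0 positive and 8 negative, from -0.31 for SERPINH1, the collagen chaperone, to -0.04 for CLPX, with a median of -0.12. HSP90B1, the HSP90 of the endoplasmic reticulum, had 259 and 279 CPM in the CRISPRi libraries, and 326 and 277 CPM in the controls, and LONP1, the mitochondrial matrix protease, had 76.6 and 79.4 CPM in the CRISPRi libraries, and 107 and 81 CPM in the controls. Control 1 was the highest library for 6 of the 9 genes in this list, HSP90B1 and LONP1 among them, against 39.5% of tested genes. Neither the HSP90B1 nor the LONP1 difference passed the test.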

How the data were processed

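PolyA RNA was sequenced as paired reads of 75 bases, per the labels' protocols. For each library the authors deposited whole-number counts and an FPKM value per gene and location, recognised from the values since the files have no header. The build was hg38, and edgeR and limma are named per the submitters' processing notes. The aligner, counter, strand setting and annotation are not given in the sources used here. FPKM was not used for tests, because 602 to 954 rows per library hold counts and an FPKM of 0, among them those of 6 members.

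Counts were summed per symbol over all contigs (5.08% to 5.15% of counts lie on alternate, fix or unplaced ones) and scaled to CPM. Totals were 44839748 and 41560282 in the CRISPRi libraries, and 944993 and 39325038 in controls 1 and 2, so control 1 was 41.6 times shallower than the next. edgeR 4.0.16 in R 4.3.3 used its expression filter, TMM scaling (factors 0.992 to 1.01), a robust quasi-likelihood fit and an adjusted p under 0.05. The steps were tested on simulated counts. Alternatives used DESeq2 1.42.0, limma-voom (limma 3.58.1), other scalings and filters, primary contigs, thinning to 944993 counts, a replicate block, and leaving out each library. Fitted fold changes rest on counts and not on mean CPM, so for some members, DNAJC8, HSPE1 and HSPA4L among them, the signs differ. Poisson intervals cover counting error only. Lengths came from GENCODE 29 transcripts, and names, promoters and positions from RefSeq GRCh38.p14, which matched 69 members.

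Members and lists were chosen with earlier results of these data known. Values per library were given for the 5 smallest p in each direction, the most abundant member of each family, the list of stress-linked genes, members whose controls differ over 1.5-fold with at least 50 counts in control 1, and the 2 smallest p of each partner list. The values of 1 partner gene chosen this way are not reported here. Another gene overlaps 24 members, 12 of them on the same strand. For those members, without strand information, reads could be split between the genes.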

Additional observations from a re-analysis of the deposited data

How the results depend on the processing

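No member was called higher under any setting, and members were called lower only without control 2. The genes called higher numbered 0 as reported, 1 by DESeq2, and 2 to 580 when 1 library was left out. Those called lower numbered 4 as reported, 11 by DESeq2, 2 by limma-voom, 7 after thinning and 15 to 798 when 1 library was left out. Partner genes were called only without control 2, in both directions, where control 1 alone stood for the controls. For the 24 named tested members, 270 of 306 recomputed log2 fold changes kept their direction and their side of the threshold, 33 changed sign and 3 became called, all without control 2. Sign changes were small for DNAJB1 (0.003 by limma-voom), DNAJB6 (-0.002 by median-of-ratios scaling, -0.01 by total counts, -0.01 at a minimum of 1 CPM, -0.001 by DESeq2, -0.06 thinned), DNAJC5 (-0.03 thinned), HSPA8 (-0.01 thinned), HSPE1 (-0.02 by DESeq2, -0.06 thinned) and HSPH1 (-0.04 thinned). DNAJC8 gave -0.22 by DESeq2 and -0.33 thinned. Leaving out 1 library, log2 fold changes that changed sign ranged from -0.24 to 7.40 for DNAJA4, whose control 1 holds 0 counts, -0.18 to 0.02 for DNAJB1, -0.05 to 0.03 for DNAJB6, -0.02 to 0.26 for DNAJC5, -0.77 to 0.67 for DNAJC8, -0.62 to 0.04 for HSPA1A, -1.11 to 0.05 for HSPA1B, -0.01 to 0.06 for HSPA4, -0.10 to 0.08 for HSPA4L, -0.79 to 0.11 for HSPD1 and -0.24 to 0.12 for HSPE1. Without a change of sign, the range was 0.06 to 0.21 for HSPA12A, 0.11 to 0.43 for HSPA13, 0.19 to 0.46 for DNAJC15, 0.23 to 0.43 for DNAJB4, and 0.32 to 8.47 for HSPB8, whose control 1 also holds 0 counts. The cause of these changes was not tested. With primary contigs only, the 6 members listed on alternate contigs have no value. The depth of control 1 limits every comparison that includes it. Control 1 also stood apart in its dividing-cell markers, whose part was not tested.

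The replicate numbers are not shown to pair the libraries. The correlation of the deviations of the replicate 1 libraries over 15708 genes was -0.027. Counting error in the shallow control 1 enters these deviations, so a low value cannot settle whether the libraries are paired. With a replicate block 0 members were called, against 17 genes higher (0.108%) and 25 lower (0.159%). The unadjusted edgeR p was under 0.05 for 3 of the 58 members (HSPA1A, HSPA1B and HSPD1). The share of all tested genes under that threshold was not computed for this fit, so these 3 have no background beside them. In each of the 3 genes control 1 was the highest library. With the block the log2 fold change was -0.01 for DNAJB6, -0.10 for DNAJC8, -0.01 for HSPA4L and -0.02 for HSPE1.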
